A study of Arabidopsis thaliana with 12 samples.

Results

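The GH9B genes of Arabidopsis thaliana encode class B enzymes of glycosyl hydrolase family 9, the endo-1,4-beta-glucanases. The members described here were the array features that the platform annotation assigned to exactly 1 gene and whose gene symbol contained GH9B. There were 4 of them among the 3439 features of the table, GH9B8 (AT2G32990), GH9B11 (AT2G44560), GH9B12 (AT2G44570) and GH9B16 (AT4G38990). The rule itself uses names only.

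Total RNA was compared on a one-colour array between the pete1 pete2 double mutant, which has neither isoform of plastocyanin, and wild type (WT), both of ecotype Columbia 0 and both grown on MS media. Plastocyanin is a small copper protein that passes electrons to photosystem I in the thylakoid lumen. The table held 6 columns of the mutant and 6 of WT. Neither the organ, the age of the plants nor the nature of the pete1 and pete2 alleles is given in the sources used here, and the labels do not say whether columns came from separate plants.

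Class B enzymes of family 9 are secreted into the cell wall, where endo-1,4-beta-glucanases cut beta-1,4-glucan chains such as amorphous cellulose, and the family is known for its part in wall loosening, cell expansion and organ shedding. Class A enzymes, among them KORRIGAN (GH9A1), are anchored in a membrane and are needed for cellulose synthesis, while class C enzymes carry an added cellulose-binding module. The genes are nuclear and have no known part in photosynthetic electron transport.

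Column totals lay between 3493 and 3778 relative units and column medians between 0.341 and 0.659, while 170 to 264 features were listed at 0 in a column. Columns 1 and 2, 3 and 4, and 5 and 6 of a genotype agreed far more closely than other columns: the median absolute log2 difference was 0.0957 to 0.134 within such a pair, against 0.300 to 0.540 between pairs of the same genotype. Each pair was averaged and counted as 1 replicate, which left n = 3 per genotype. The p-values therefore measure only the spread between these replicates, which may be technical, and the number of arrays limits the precision.

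None of the 4 GH9B genes differed between the mutant and WT beyond the spread between replicates. After quantile normalization, 2 were on average higher in the mutant (GH9B8 and GH9B16) and 2 lower (GH9B11 and GH9B12), with log2 fold changes between -0.28 and 0.30. With the values as deposited, where the median of all features was -0.27, those of GH9B8 (-0.052) and GH9B16 (-0.15) were above that median and below 0, and those of GH9B11 (-0.38) and GH9B12 (-0.70) were below it. After quantile normalization their median was 0.057, against -0.011 over all 3438 tested features. By limma, with p-values adjusted over all tested features (Benjamini-Hochberg, 0.05), 0 of 4 passed, where 0.0291% of all features were called. At an unadjusted p under 0.05 the count was also 0 of 4, where 7.3% of all features were called. In these bulk samples, fewer cells of a type and less RNA per cell cannot be told apart. The mutant and WT pairs overlapped for all 4 genes, while for 9.92% of all features they did not overlap. With the 12 columns taken as separate samples, which counts the close columns of a pair as independent, 0 of 4 passed, where 6.52% of all features were called.

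GH9B8, a class B endoglucanase gene that stands apart from other family members on chromosome 2, varied most. Its deposited intensities were 0.611, 0.582, 0.414, 0.386, 0.112 and 0.131 in mutant columns 1 to 6. They were 0.475, 0.493, 0.466, 0.464, 0.130 and 0.157 in WT columns 1 to 6. Columns 5 and 6 were the low ones in both genotypes, and the genotypes overlapped. On the normalized scale GH9B8 measured 0.413 ± 0.276 in the mutant and 0.336 ± 0.185 in WT (SD, n = 3). The log2 fold change was 0.30 (SE 0.71, limma adjusted p = 1), with a 95% interval from -1.53 to 2.14. In linear terms that interval runs from 0.346 to 4.41 times WT. The direction turned when 1 pair was left out, to -0.21 without mutant columns 1 and 2 and to -0.29 without WT columns 5 and 6.

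GH9B11 belongs to a run of 4 adjacent family genes on chromosome 2, GH9B9, GH9B10, GH9B11 and GH9B12, with 0 other protein-coding genes between them in the RefSeq table of TAIR10.1. Its deposited intensities were 0.420, 0.355, 0.785, 0.747, 0.255 and 0.247 in mutant columns 1 to 6. They were 0.925, 0.879, 0.518, 0.566, 0.356 and 0.316 in WT columns 1 to 6. The highest mutant pair was columns 3 and 4 and the highest WT pair columns 1 and 2, and columns 5 and 6 were lowest in both genotypes. Mutant columns 3 and 4 and WT columns 1 and 2 also had the highest column medians of their genotype. The order of the pairs held after normalization, at 0.491, 0.607 and 0.387 in the mutant and 0.750, 0.556 and 0.318 in WT. GH9B11 measured 0.495 ± 0.110 in the mutant and 0.541 ± 0.217 in WT after normalization (SD, n = 3). Its log2 fold change was -0.07 (SE 0.37, limma adjusted p = 1), with a 95% interval from -1.02 to 0.89. It was 0.098 without mutant columns 5 and 6, 0.22 without WT columns 1 and 2 and -0.41 without WT columns 5 and 6.

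GH9B12, the last gene of that run, was the dimmest of the 4 features. Its deposited intensities were 0.103, 0.136, 0.499, 0.499, 0.0853 and 0.103 in mutant columns 1 to 6. They were 0.472, 0.428, 0.204, 0.219, 0.266 and 0.237 in WT columns 1 to 6. In the mutant, columns 3 and 4 stood above all WT columns and the other 4 stood below all of them. The column medians of all features lay in the same order. They were 0.659 in mutant columns 3 and 4, 0.341 to 0.402 in the other mutant columns and 0.485 to 0.627 in WT. After normalization GH9B12 measured 0.162, 0.370 and 0.178 in the mutant pairs and 0.366, 0.221 and 0.236 in the WT pairs. GH9B12 measured 0.237 ± 0.116 in the mutant and 0.274 ± 0.0799 in WT after normalization (SD, n = 3). Its log2 fold change was -0.28 (SE 0.40, limma adjusted p = 1), with a 95% interval from -1.31 to 0.75. Leaving out mutant columns 3 and 4 moved it to -0.67, and leaving out WT columns 1 and 2 to -0.051.

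GH9B16 is the first of 3 adjacent family genes on chromosome 4, followed by GH9B17 and GH9B18, again with 0 protein-coding genes between them. Its deposited intensities were 0.298, 0.291, 0.686, 0.675, 0.238 and 0.237 in mutant columns 1 to 6. They were 0.306, 0.251, 0.460, 0.479, 0.535 and 0.465 in WT columns 1 to 6. Mutant columns 3 and 4, which had the highest column medians of their genotype, were again the highest, while in WT columns 1 and 2 were the lowest. Both held after normalization, at 0.381, 0.530 and 0.368 in the mutant pairs and 0.218, 0.488 and 0.479 in the WT pairs. GH9B16 measured 0.426 ± 0.0905 in the mutant and 0.395 ± 0.153 in WT after normalization (SD, n = 3). Its log2 fold change was 0.18 (SE 0.38, limma adjusted p = 1), with a 95% interval from -0.80 to 1.16. Without WT columns 1 and 2 it was -0.20.

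**Figure D1:**
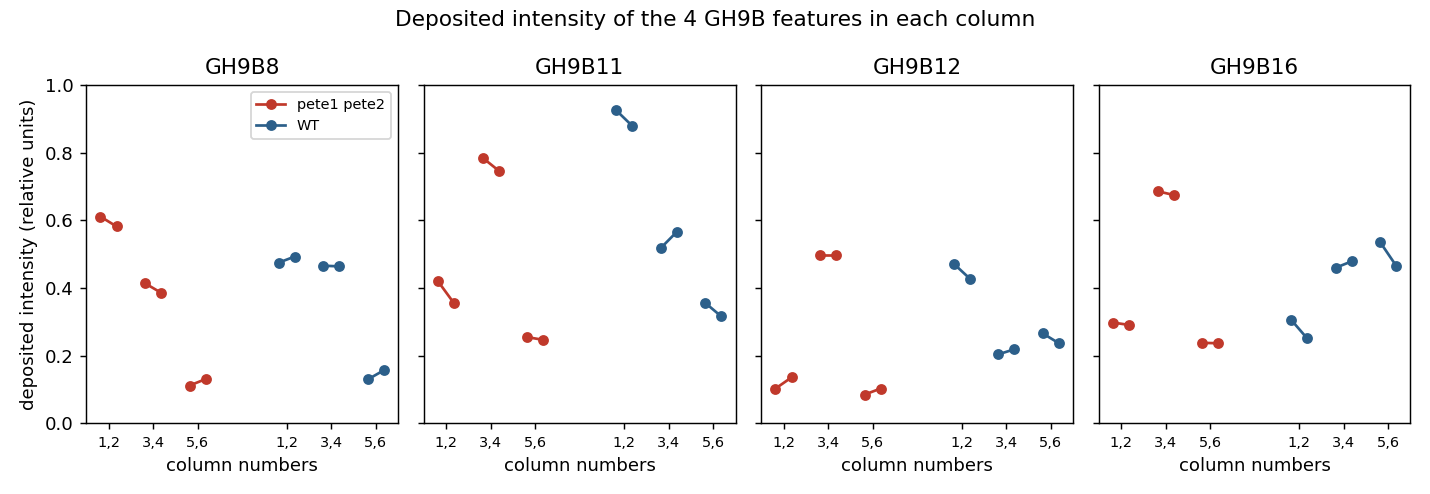
Deposited intensity (relative units, linear axis from 0) of the 4 GH9B features in mutant columns (left, red) and WT columns (right, blue). Each line joins the columns of 1 pair. The lowest and highest pairs of a genotype lie further apart than the columns within a pair. In GH9B8, for example, columns 5 and 6 are lowest in both genotypes. Other pairs lie close together or overlap, as the higher pairs of GH9B8 and of GH9B16 do in WT.

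The signals of these genes varied more between pairs of columns than within them. The largest log2 difference within a pair was 0.394 for GH9B8, 0.218 for GH9B11, 0.330 for GH9B12 and 0.270 for GH9B16. Between the 3 pairs of a genotype, GH9B8 spanned 1.74 in the mutant and 1.92 in WT on the log2 scale, GH9B11 spanned 0.648 in the mutant and 1.24 in WT, GH9B12 spanned 1.19 in the mutant and 0.730 in WT, and GH9B16 spanned 0.529 in the mutant and 1.16 in WT. The SDs of the log2 signal were 0.292 to 0.908 in the mutant and 0.397 to 1.03 in WT. For the 952 features with a mean signal between those of GH9B12 and GH9B11, the median SD was 0.393 in the mutant and 0.340 in WT. All 4 members lay above that median in WT, and GH9B8 and GH9B12 did so in the mutant.

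All 4 features lay in the lower to middle range of the array. Averaged over a pair, the percentile rank among all features ran from 31.6 to 66.9 for GH9B11, from 21.2 to 52.1 for GH9B16, from 13.0 to 65.7 for GH9B8 and from 15.8 to 37.2 for GH9B12. None was listed at 0 in any column. A floor of 0.0225 was set under the normalized values, and all 4 members were above it in all 12 columns.

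Signals of different features also depend on probe length and hybridization, so their order in WT describes spots and not transcript amounts. By mean log2 signal over the WT pairs the order was GH9B11, GH9B16, GH9B8 and GH9B12. GH9B11 exceeded GH9B12 in all 3 mutant pairs and in all 3 WT pairs, by 1.14 ± 0.442 in the mutant and 0.932 ± 0.460 in WT on the log2 scale (SD, n = 3). GH9B11 also exceeded GH9B8 in 3 of 3 WT pairs, by 0.809 ± 0.564, but in 2 of 3 mutant pairs. GH9B11 and GH9B16 differed by 0.459 ± 1.21 in WT, GH9B16 and GH9B8 by 0.350 ± 1.41, and GH9B8 and GH9B12 by 0.123 ± 1.01, so neighbours in the WT order did not differ beyond their spread. An exact two-sided sign-flip permutation test of 3 pairs cannot go below p = 0.25, which was the value for GH9B11 against GH9B12 and against GH9B8.

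Whether the genotypes differed in the balance between 2 members was tested on the log2 difference within each pair of columns, in which a scaling factor of an array cancels. Over the 6 comparisons of members, the change of this difference between the mutant and WT lay between -0.37 for GH9B11 minus GH9B8 and 0.58 for GH9B8 minus GH9B12. The exact permutation p, two-sided, was 0.6 or 0.9 for each, and 0.9 for all 6 after Benjamini-Hochberg adjustment, where 3 against 3 cannot give less than 0.1. No shift in balance was detectable at this number of arrays. GH9B11 minus GH9B12, the difference between adjacent genes of 1 run, was above 0 in every pair, at 1.60, 0.713 and 1.12 in the 3 mutant pairs and 1.04, 1.33 and 0.429 in the 3 WT pairs.

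**Figure D2:**
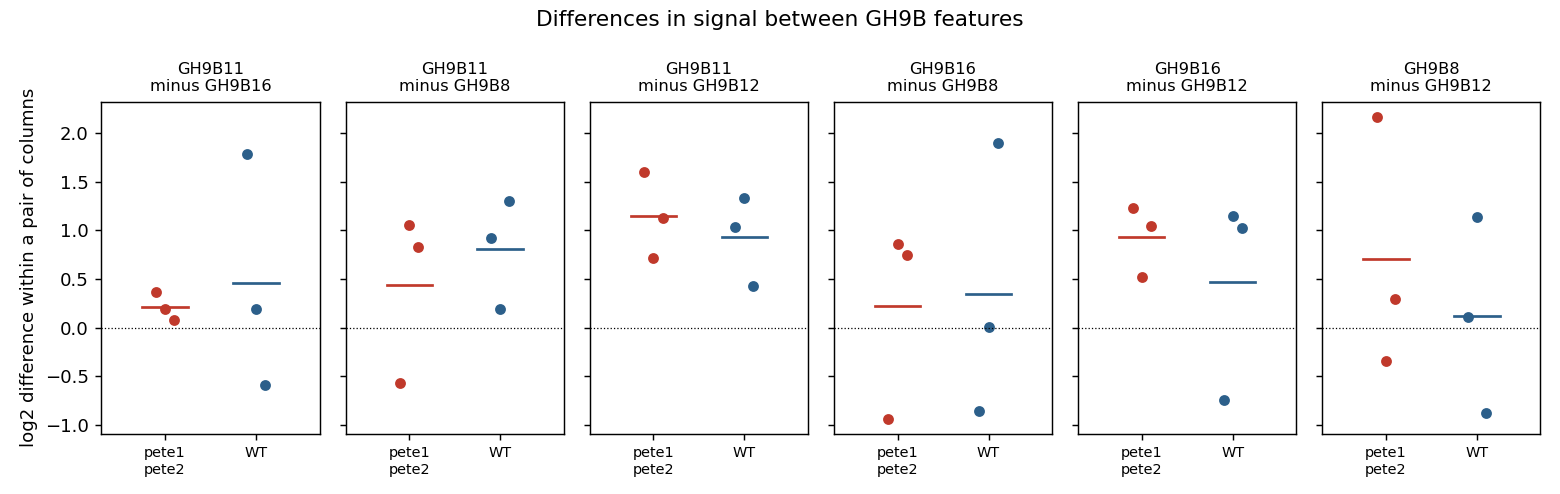
Log2 difference in normalized signal between 2 GH9B features within each pair of columns, for the mutant (left, red) and WT (right, blue), with lines at the means of 3 pairs. GH9B11 minus GH9B12 is above 0 in all 6 pairs, and the mutant and WT points overlap in every panel.

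Other family members were named in the platform annotation only on features assigned to several genes, if at all. The annotation does not list 1877 of the 3439 features. The RefSeq table names 17 GH9B genes by symbol or synonym: 4 had a feature of their own, 6 were named only on features with several genes, and 7 were named on none. Of the 4 members, 3 also appeared on such a shared feature, all but GH9B8. Signals from shared features cannot be split between their genes, and close copies may also hybridize to the features assigned to 1 gene.

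For the run on chromosome 2, feature 1466 was assigned to GH9B9, GH9B10, GH9B11 and GH9B12 together. It measured 0.347, 0.590 and 0.255 in the mutant pairs and 0.384, 0.383 and 0.200 in the WT pairs after normalization. Feature 1478, assigned to GH9B9 and GH9B10, measured 0.165, 0.769 and 0.138 in the mutant pairs and 0.338, 0.248 and 0.194 in the WT pairs. Both were highest in mutant columns 3 and 4. So was GH9B12, though at 0.370 against 0.366 in WT columns 1 and 2, and so was GH9B16 of the other run (0.530). GH9B11 was highest in WT columns 1 and 2 (0.750). Their log2 fold changes were 0.28 (SE 0.43) and 0.035 (SE 0.74), and that of feature 1478 was -0.76 without mutant columns 3 and 4 and that of feature 1466 was -0.056.

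For the run on chromosome 4, feature 3160 was assigned to GH9B16, GH9B17 and GH9B18. After normalization it was nearly constant in the mutant, at 0.495, 0.486 and 0.503, against 0.355, 0.642 and 0.458 in WT. Its deposited intensities were less even in the mutant, at 0.402, 0.38, 0.638, 0.631, 0.352 and 0.327 in columns 1 to 6. They were 0.425, 0.448, 0.657, 0.623, 0.5 and 0.455 in WT columns 1 to 6. The log2 fold change of feature 3160 was 0.071 (SE 0.23). Feature 2890, assigned to GH9B17, GH9B18 and AT3G42155, was listed at 0 in 8 of 12 columns. Its highest deposited intensity was 0.0375, so no fold change is given. GH9B14 and GH9B15, which lie apart on chromosome 4, shared features 2019 and 2884. After normalization, feature 2884 measured 0.529 ± 0.147 in the mutant and 0.689 ± 0.213 in WT (SD, n = 3). Its log2 fold change was -0.38 (SE 0.33). Feature 2019 measured 0.264 ± 0.0407 in the mutant and 0.285 ± 0.0947 in WT after normalization (SD, n = 3). Its log2 fold change was -0.073 (SE 0.27). In feature 2019 the deposited intensities of WT columns 1 and 2 disagreed, at 1.04 and 0.224. Without WT column 1 its log2 fold change was 0.32. The limma adjusted p was at least 0.989 for each of these shared features.

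**Figure D3:**
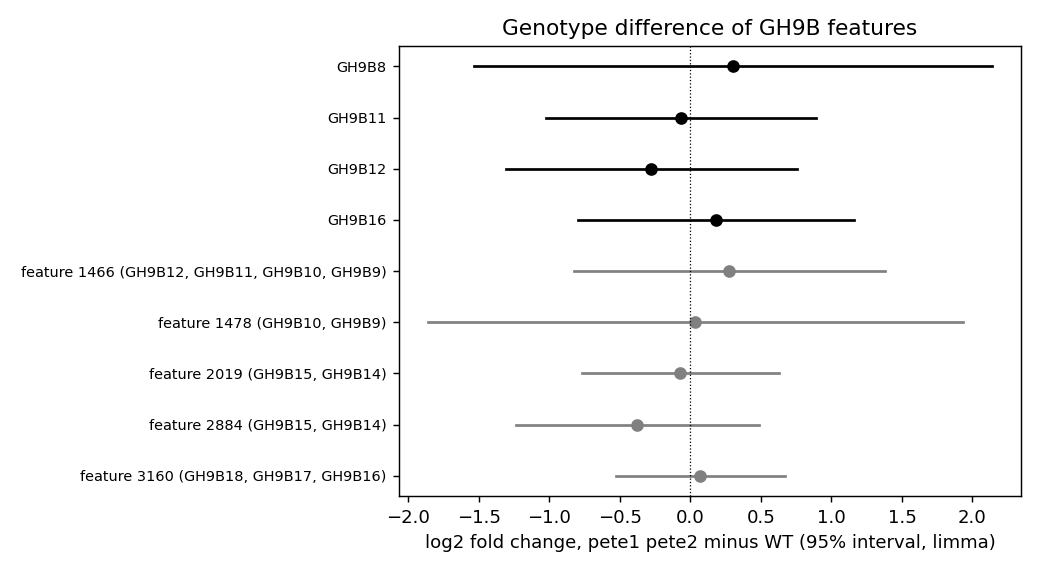
Log2 fold change of pete1 pete2 minus WT with the 95% interval from limma, for the 4 GH9B features (black) and the 5 features assigned to several GH9B genes that were above the floor (grey). All 9 intervals include 0, and those of GH9B8 and feature 1478 are the widest shown.

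Features above the floor from the same run of adjacent genes were positively correlated across arrays, as a description over 6 pairs whose points share arrays and scaling. On normalized log2 values, Pearson's r was 0.62 between GH9B11 and GH9B12, 0.877 between GH9B12 and feature 1478, 0.831 between GH9B11 and feature 1466, and 0.746 between GH9B16 and feature 3160. The lowest value within the run on chromosome 2 was 0.562, between GH9B12 and feature 1466. Feature 2890, which names 2 genes of the run on chromosome 4, was at the floor in all pairs and gave no r. Features 2019 and 2884, assigned to the same 2 genes outside the runs, had an r of 0.0418. Between members of different runs r was -0.455 for GH9B11 and GH9B16 and -0.189 for GH9B12 and GH9B16. GH9B8 had r of 0.637 with GH9B11 and -0.165 with GH9B12. These negative values turned with the scaling: with the values as deposited, in which brighter and dimmer arrays are not evened out, r was 0.356 for GH9B11 and GH9B16, 0.6 for GH9B12 and GH9B16 and 0.346 for GH9B8 and GH9B12. The features of a run are also close in number. GH9B12 lies 12 after GH9B11, and over all 2667 pairs of features 12 apart the median r was 0.18, with quartiles of -0.242 and 0.549. GH9B11 and feature 1466, and GH9B12 and feature 1478, lie 24 apart. Over all features 24 apart the median was 0.119, with quartiles of -0.299 and 0.503. GH9B12 and feature 1466 lie 36 apart, where the median was 0.0809, with quartiles of -0.319 and 0.489.

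The features near a member by number moved with some members. The mean log2 signal of the features within 10 numbers of GH9B16 was -0.377, -0.217 and -0.487 in the mutant pairs and -1.10, -0.325 and -0.429 in the WT pairs, so it was low in WT columns 1 and 2, as GH9B16 was. Pearson's r between member and surrounding features over the 6 pairs was 0.953 for GH9B16, 0.939 for GH9B11, 0.354 for GH9B8 and 0.115 for GH9B12, against a median of 0.337 over 3327 features. With the surrounding mean subtracted, the log2 fold change of GH9B16 was -0.079 (SE 0.23) and that of GH9B12 was -0.47 (SE 0.36), and none of the 4 passed limma's test (adjusted p = 1 for each). Where features lie on the array is not given in the sources used here.

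**Figure D4:**
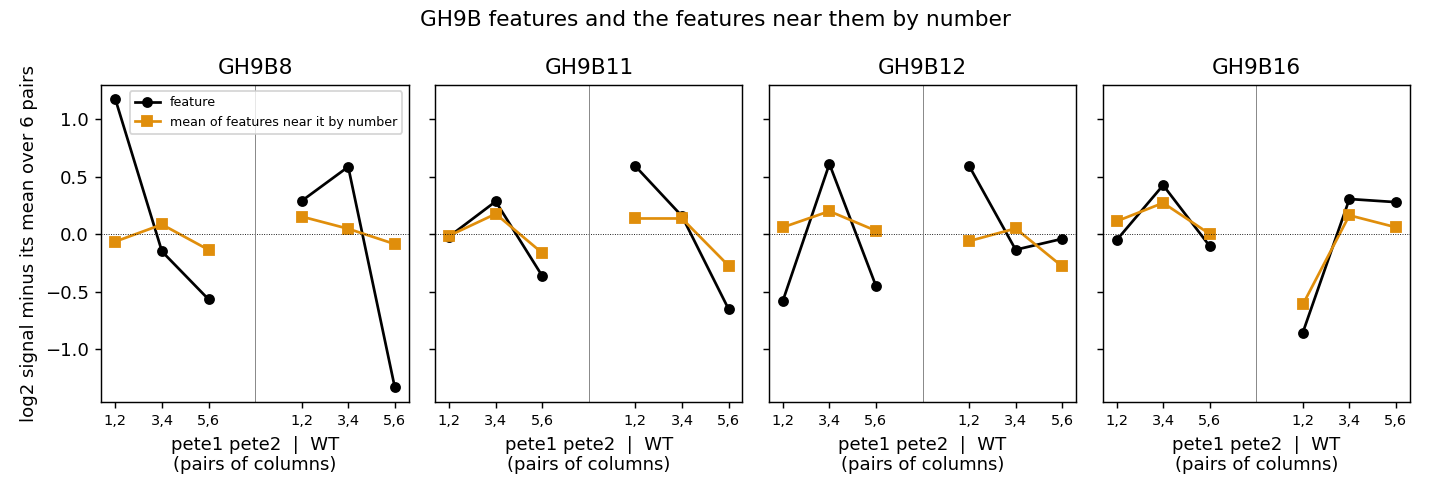
Normalized log2 signal of each GH9B feature (black) and the mean log2 signal of the features within 10 numbers of it (orange), each minus its own mean over the 6 pairs, in mutant pairs (left of the grey line) and WT pairs (right). For GH9B16 both fall together in WT columns 1 and 2. In each panel the surrounding features stay flatter than the member.

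The genes most alike a member in profile over the 6 pairs were sought by Pearson's r among the 661 other named genes whose signal varied. For GH9B11 they were NTRC, an NADPH-dependent thioredoxin reductase of the plastid (r = 0.974), MAMI (0.974) and AT4G21820 (0.957). For GH9B12 they were AT5G05330 (0.982), AT1G69910 (0.974) and AT1G80450 (0.970), and for GH9B8 they were AT1G34270 (0.948), AT4G39690 (0.938) and AT5G40470 (0.902). For GH9B16 they were AT2G38950 (0.984), AT4G02800 (0.967) and AT2G23890 (0.966), the last of which is the feature directly before GH9B16 by number. Among the same 661 genes, the closest rank of 1 member to another was 51, that of GH9B11 for GH9B8. For GH9B11, GH9B8 ranked 96, ahead of the adjacent gene GH9B12 at 99, and GH9B11 ranked 118 for GH9B12. The r of each gene named is among the 3 highest of 661 values, each over 6 points.

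Few other wall genes had a feature of their own to set beside the family. There were 11 lists chosen by gene name, 9 for the cell wall and 2 for root and leaf markers. Of these, 7 had genes on features with several genes, which apart from family 9 are not reported here. Only 1 list had a gene with a feature of its own. That gene was CSLA01, a cellulose synthase-like gene of the mannan synthase group. It measured 0.308, 0.201 and 0.645 in the mutant pairs and 0.273, 0.369 and 0.371 in the WT pairs after normalization. Its log2 fold change was 0.030 (SE 0.46, limma adjusted p = 1). That fold change was 0.43 without mutant columns 3 and 4 and -0.42 without mutant columns 5 and 6. Of the other family 9 classes, 0 genes had a feature of their own. Feature 1540, assigned to the class C genes GH9C2 and GH9C3, was listed at 0 in 6 of 12 columns. Its highest deposited intensity was 0.0849. The lists of xyloglucan endotransglucosylases, expansins, pectin genes, other wall glycosidases, cellulose assembly, arabinogalactan proteins, secondary wall genes and root and leaf markers had 0 genes with a feature of their own. Leaf markers were named on 2 features with several genes, and the mix of organs in the samples was not analysed here.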

How the data were processed

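The deposited table holds linear intensity values with a top of 100. What the authors divided them by, the scanner, the background correction and the software are not given in the sources used here. Genotypes were read from the sample titles, per the labels. Quantile normalization was applied across the 12 columns, a floor was set at the 1st percentile of the deposited values above 0 (0.0225), and values were put on the log2 scale. Every column was nearest to its partner, so columns 1 and 2, 3 and 4, and 5 and 6 of a genotype were averaged as log2 values. Printed means and SDs are of the linear pair values.

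The genotypes were compared by a two-sided limma fit (version 3.58.1, R 4.3.3, lmFit with eBayes) on 3438 features, after features of the same single gene had been averaged. Benjamini-Hochberg adjustment ran over all of these, with a threshold of 0.05, and the script was checked on simulated data. The platform annotation lists 1562 features, 692 of them with 1 gene, and 690 of those were found in the RefSeq table of TAIR10.1. That table served for names and gene order only, since the array names no build. Probe sequences were not used here.

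The members, lists and tests were chosen with earlier results of these data known. By rule, all members, up to 4 genes of each list and the 3 genes most alike each member were named. Printing the shared features was decided after their values were seen. Of the 11 alternatives besides leaving out columns or pairs, 1, the subtraction of surrounding features, was added then too.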

Additional observations from a re-analysis of the deposited data

How the results depend on the processing

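The number of members past limma's threshold was 0 of 4 under each alternative and without any 1 column or pair, and that of other wall genes was 0 of 1. Of 115 log2 fold changes of the 4 members under these settings, 104 kept their direction and 11 changed sign. Some of the 104 could not have changed. Settings that alter only the variance, the grouping of columns or the tested features leave the log2 fold change as it was. Leaving out 1 column also keeps its close partner. The count is therefore no measure of how firm a direction is. The limma adjusted p of the members was never below 0.494. GH9B12 and feature 1478 were removed with the dimmest 25% of features. Where a sign changed, the cause was not tested, apart from the shift of all features. Signal over background, which is not given in the sources used here, limits dim features.

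With the values as deposited, log2 fold changes were -0.052 for GH9B8, -0.149 for GH9B16, -0.124 for feature 1466, -0.482 for feature 1478, -0.221 for feature 3160 and -0.214 for CSLA01, and with scaling to the total -0.0353, -0.132, -0.107, -0.465, -0.205 and -0.198 in the same order. The median of all features was -0.273 in the first of these settings and -0.257 in the second. Relative to it, feature 1478 alone among these 6 lay on the lower side (-0.208 in each), and with median centring it was -0.21. With surrounding features subtracted, GH9B16 was -0.0789, feature 3160 -0.256 and CSLA01 -0.175.

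Without 1 of the columns or pairs, log2 fold changes ranged from -0.288 to 0.668 for GH9B8, -0.411 to 0.216 for GH9B11, -0.667 to -0.0506 for GH9B12, -0.2 to 0.377 for GH9B16, -0.0563 to 0.539 for feature 1466, -0.763 to 0.478 for feature 1478, -0.462 to 0.315 for feature 2019, -0.596 to -0.121 for feature 2884, -0.136 to 0.296 for feature 3160 and -0.415 to 0.428 for CSLA01. The difference between members in the genotype effect, when 1 pair was left out, ranged from -0.0391 to 0.43 for GH9B11 minus GH9B12, -0.78 to 0.415 for GH9B11 minus GH9B16, -0.71 to 0.132 for GH9B11 minus GH9B8, -0.149 to 0.794 for GH9B16 minus GH9B12, -0.736 to 0.657 for GH9B16 minus GH9B8 and -0.146 to 1.14 for GH9B8 minus GH9B12.

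Over all features, limma called 1 higher and 0 lower in the mutant. It called 0 higher as deposited, with median centring and with scaling to the total, 0 higher and 2 lower with surrounding features subtracted, and from 0 to 1 in either direction without 1 column or pair. With the 12 columns as separate samples it called 149 higher and 75 lower, and with the pair as a random block 15 and 4, both fits whose p-values can be too small. Columns of the mutant and WT share numbers, and deviations of same-numbered pairs correlated at 0.324, 0.000557 and 0.389 over features. For pairs of different number the values lay between -0.398 and 0.165. The labels do not say whether the numbers mark a pairing, and the main fit did not use one. With a replicate block, 0 features were higher on pair means, and 156 were higher and 93 lower on the 12 columns. On pair means the block gave an SE of 0.433 for GH9B8, 0.242 for GH9B11, 0.463 for GH9B12 and 0.293 for GH9B16. In the main fit these were 0.714, 0.373, 0.401 and 0.381.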
